A study of Homo sapiens with 9 samples.

Results

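RAB GTPases are the address labels of membrane traffic: each one marks a set of vesicles or organelles while it holds GTP and is drawn off the membrane when it holds GDP. Guanine nucleotide exchange factors (GEFs) load a RAB with GTP, and GTPase-activating proteins (GAPs), most of them with a TBC domain, switch it off. A RAB must also carry lipid tails, added with the help of escort proteins, to sit on a membrane, and its active form recruits effectors such as tethers, motors and lipid enzymes. Genes with symbols of this system were selected among the named probe sets of the arrays, by symbols that begin with RAB and a digit, RAB11FIP, RAB3GAP, RABGAP, RABEP or TBC1D. The selection gave 18 genes of 14884 named genes, each with 1 probe set.

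The selection holds almost no RAB GTPase itself. Only 1 of the 64 protein-coding RAB GTPase genes in RefSeq has a named probe set, RAB6D, a close relative of RAB6C, and 2 of 44 protein-coding TBC1D genes do, TBC1D31 and TBC1D32. The other RAB GTPases were not analysed here. The rest of the selection is 12 RAB-associated proteins, 1 transcribed pseudogene of the TBC1D3 family, and 2 noncoding RNAs named for a neighbouring RAB gene. The 12 are effectors, GEFs and GAPs, except RAB5IF, which is included by its symbol only. The genes are therefore described as RAB effectors, regulators, other RAB-associated genes and neighbouring transcripts. RAB6D was the 1 gene too dim to be tested, and 17 were tested.

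HEK293 is an established human embryonic kidney cell line. Agonist samples are HEK293 cells that the labels call GPR39-overexpressing, GPR39 being a zinc-sensing G protein-coupled receptor, treated with the synthetic agonist TC-G-1008 at 1 uM. The GPR39 group is cells with the same receptor label given 0.03 mg/mL cumate, a small molecule that switches on engineered genes, and the mock group is naive HEK293 cells labelled as without cumate. Each group has 3 arrays, called biological replicates with no word on separate cultures, so the spread behind each p-value is that of these arrays and may be technical. The labels name no cumate for the agonist group, and no group has cumate or agonist without the receptor label, so these factors cannot be told apart. The sources used here give neither the exposure time nor the number of clones behind the receptor cells.

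Values are deposited log2 signals per probe set, and a probe set was tested when it lay above the 40th percentile of its array (2.63 to 2.70) in at least 3 of 9 arrays. Array medians lay between 3.13 and 3.22. The GPR39 probe set lay below that filter, with means of 2.58 ± 0.11 on agonist arrays, 2.58 ± 0.04 on GPR39 arrays and 2.47 ± 0.07 on mock arrays (SD, n = 3 each), so these arrays do not check the receptor label. Mock replicate 1 stood apart from its group: across all probe sets it correlated at 0.988 to 0.989 with the GPR39 arrays, against 0.984 to 0.986 with the other mock arrays. All 5 named genes of an HEK293 lineage and epithelial list (PAX2, KRT8, KRT18, VIM and IRS4) passed the filter, and the named fibroblast genes DCN and LUM did not. Of these 5, IRS4 and VIM fell by 0.85 and 0.46 on agonist against mock arrays and KRT18 rose by 0.29 (adjusted p = 0.00530, 0.00368 and 0.0158), and IRS4 fell by 1.03 on GPR39 against mock arrays (adjusted p = 0.0162). Of the leukocyte list, CD68 was 1.23 ± 0.12 higher on agonist than on mock arrays (adjusted p = 0.000400). It was 0.90 ± 0.12 higher on GPR39 than on mock arrays (adjusted p = 0.0124). CD14, TYROBP and LAPTM5 read between 2.59 and 3.68 on every array and were not called. TYROBP still read 3.37 to 3.62 on agonist arrays, above every mock array at 2.59 to 3.20. Of all probe sets, 14.8% had agonist arrays above mock arrays in this way. All 4 named leukocyte genes passed the filter. Of the hepatocyte list, TTR and APOA1 passed (means of 4.40 and 3.74 over 9 arrays) and ALB did not. Passing the filter alone therefore does not identify the cells. The part of these markers in the results below was not tested.

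The 2 noncoding neighbours and TBC1D31 were the members that changed, and all 3 fell on agonist arrays. The noncoding RNAs start beside a RAB gene on the opposite strand, so the sequences around their starts are shown, from RefSeq (GRCh38.p14). RAB11B-AS1 lies at chr19:8374376-8390691 on the minus strand. It overlaps the start of RAB11B, which encodes a recycling endosome GTPase, by 332 bases. RAB30-DT lies at chr11:83072066-83073712 on the plus strand. It starts 169 bases from the start of RAB30, a Golgi GTPase gene, without overlapping it, and the RAB30 start falls inside the window printed. Each window covers 250 bases before the start and 50 after it, is written 5′ to 3′ on the strand of the noncoding RNA, and has CCAAT boxes (CCAAT on either strand) in capitals.
RAB11B-AS1: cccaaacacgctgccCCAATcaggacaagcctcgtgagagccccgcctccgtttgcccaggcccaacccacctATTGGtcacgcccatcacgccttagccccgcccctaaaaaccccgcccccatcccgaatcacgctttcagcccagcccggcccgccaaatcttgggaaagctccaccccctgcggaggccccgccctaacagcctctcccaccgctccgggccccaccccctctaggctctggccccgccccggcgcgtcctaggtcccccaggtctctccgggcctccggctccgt
RAB30-DT: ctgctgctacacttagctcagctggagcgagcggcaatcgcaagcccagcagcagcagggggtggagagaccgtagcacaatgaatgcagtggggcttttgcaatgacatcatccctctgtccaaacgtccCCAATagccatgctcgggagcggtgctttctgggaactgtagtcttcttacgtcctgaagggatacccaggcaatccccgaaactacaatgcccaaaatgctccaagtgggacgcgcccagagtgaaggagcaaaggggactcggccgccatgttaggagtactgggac
The window of RAB11B-AS1 is chr19:8390642-8390941 on the minus strand and has 69.7% G and C. The window of RAB30-DT is chr11:83071816-83072115 on the plus strand and has 56.7% G and C. CCAAT occurs in 34.61% of the 35116 promoter windows of the same length and is a common match. The RAB11B-AS1 window also holds GC boxes (GGGCGG on either strand, in 44.95% of windows), which are not in capitals, and the RAB30-DT window holds none. Neither window holds the cAMP response element TGACGTCA (1.85% of windows), the AP-1 site TGANTCA (7.71%) or the E-box CACGTG (7.26%), on either strand.

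RAB11B-AS1 read 3.47, 3.31 and 3.55 on agonist arrays, 4.55, 4.11 and 3.87 on GPR39 arrays, and 4.69, 4.56 and 4.11 on mock arrays. Every agonist array was below all 6 others, while the GPR39 and mock arrays overlapped. Against mock it fell by 1.01 ± 0.20 on the log2 scale (standard error of the fit, as for all changes below), a 2.02-fold difference (adjusted p = 0.0117). Against the GPR39 arrays the change of -0.73 ± 0.20 did not pass the threshold of 0.05 (adjusted p = 0.0599). It passed without mock replicate 3, with a change of -0.73 and an adjusted p of 0.0445. The sources used here do not give the strand or place of the probes, so RAB11B-AS1 and the overlapping end of RAB11B cannot be told apart.

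RAB30-DT read 6.16, 6.28 and 6.12 on agonist arrays, 6.50, 6.34 and 6.44 on GPR39 arrays, and 6.50, 6.63 and 6.82 on mock arrays. The agonist arrays were again below all others. Against mock it fell by 0.46 ± 0.10 (adjusted p = 0.0153). The call was lost without agonist replicate 1 or agonist replicate 3, with adjusted p between 0.0502 and 0.0510. Against the GPR39 arrays the change was -0.24 ± 0.10 and did not pass (adjusted p = 0.178).

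For context, 390 named genes with symbols ending in AS or DT, with or without a number after it, these 2 included, were tested. On agonist against mock arrays 26 of them fell and 11 rose, 9.49% called in all, with a median change of -0.01, against 15% of all probe sets called in that comparison. Antisense and divergent transcripts as a class therefore had no larger called share than other probe sets. No RAB GTPase has a value beside its noncoding neighbour here, since neither RAB11B nor RAB30 has a named probe set.

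The TBC1D family genes measured are both tied to cilia and centrosomes more than to a known RAB. TBC1D31 encodes a TBC domain protein of centriolar satellites, and TBC1D32, also called BROMI, is needed for primary cilia in mouse. TBC1D31 read 6.28, 6.30 and 6.26 on agonist arrays, 6.67, 6.66 and 6.90 on GPR39 arrays, and 6.74, 6.59 and 6.59 on mock arrays. The 3 agonist values lay together, below every other array. It fell by 0.46 ± 0.09 against the GPR39 arrays (1.38-fold, adjusted p = 0.0151) and by 0.36 ± 0.09 against mock (adjusted p = 0.0270). The fall against mock lost its call on leaving out any mock or agonist array (adjusted p from 0.0506 to 0.0732), and also after quantile normalization or centring on the 75th percentile (adjusted p = 0.0593 and 0.0852). In contrast, the fall against the GPR39 arrays kept it on leaving out any of the 9 arrays (adjusted p from 0.0169 to 0.0464).

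TBC1D32 read 4.06, 4.51 and 4.05 on agonist arrays, 4.57, 4.62 and 4.63 on GPR39 arrays, and 4.37, 4.88 and 4.92 on mock arrays. Mock replicate 1 lay below agonist replicate 2, so those groups overlapped. The changes of -0.40 ± 0.17 against the GPR39 arrays (adjusted p = 0.208) and -0.52 ± 0.17 against mock (adjusted p = 0.0850) did not pass. Against mock it was called without mock replicate 1, at -0.70 (adjusted p = 0.0190), and without agonist replicate 2, at -0.67 (adjusted p = 0.0395). The pseudogene transcript TBC1D3P1-DHX40P1, from a family of near-identical copies that arrays may not separate, changed by -0.24 ± 0.09 against the GPR39 arrays (adjusted p = 0.141) and by -0.05 ± 0.09 against mock (adjusted p = 0.742).

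**Figure D1:**
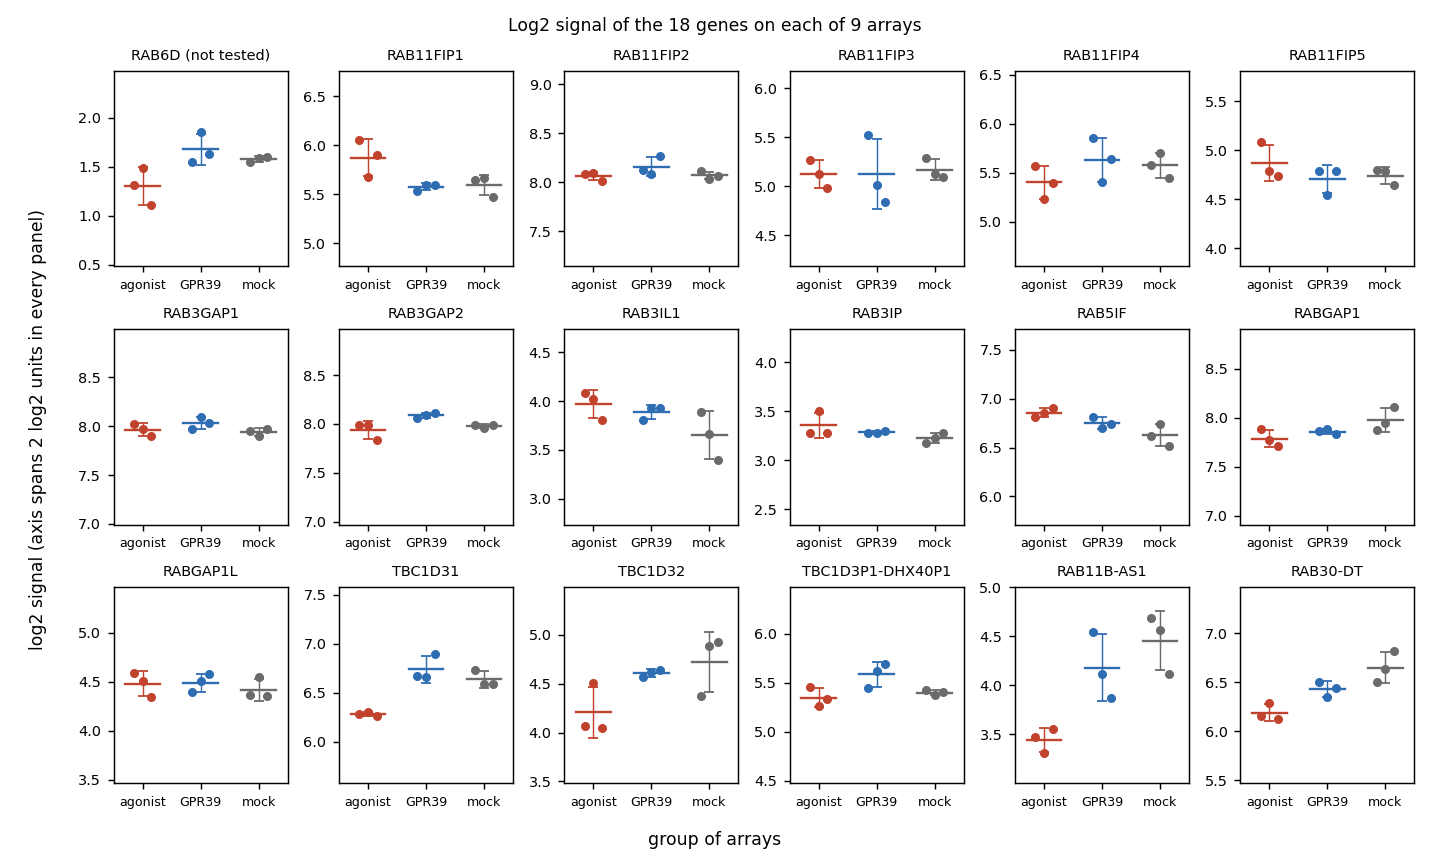
Log2 signal of the 18 selected genes on each array, with agonist, GPR39 and mock groups side by side; points are arrays, lines are means and bars are SDs (n = 3), and every axis spans 2 log2 units. RAB11B-AS1, RAB30-DT, TBC1D31 and the untested RAB6D show 3 agonist points below all 6 others, while most RAB-associated genes overlap between groups.

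In agonist against GPR39 arrays, TBC1D31 was the only 1 of 17 tested members called, or 5.88%, against 9.06% of all probe sets (3.12% higher and 5.95% lower). In agonist against mock arrays 3 of 17 were called, all lower, or 17.6%, against 15% of all probe sets (6.11% higher and 8.94% lower), and 1 was without agonist replicate 1 or 3. Both shares lie near those of the whole array. In GPR39 against mock arrays 0 of 17 were called in limma, also at an unadjusted p of 0.05, against 1.17% of all probe sets (0.749% higher and 0.422% lower). Groups that did not overlap were more frequent. In agonist against GPR39 the 3 arrays of one group lay all above (1 member) or all below (5 members) those of the other, against 29.9% of all probe sets (13.5% above, 16.5% below). In agonist against mock 2 members lay above and 3 below, against 31% (14.8% above, 16.2% below). In GPR39 against mock 2 lay above and 0 below, against 20.7% (11.4% above, 9.28% below), so in no comparison did the members stand far above the whole array. The median change over the 17 members was -0.07, -0.04 and 0.06 in these 3 comparisons, against 0.01, 0.02 and 0.01 over all probe sets. The comparisons share arrays, so their values are not independent of each other. In bulk RNA, fewer expressing cells and less RNA per cell cannot be told apart.

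None of the 12 RAB-associated protein genes passed in any comparison. Of all probe sets, 9.06% passed in agonist against GPR39, 15% in agonist against mock and 1.17% in GPR39 against mock. With so few genes, the count of 0 is not read as a result about this class. The RAB11 family interacting proteins link RAB11, the main GTPase of recycling endosomes, to motors and membranes. RAB11FIP1, also known as RAB coupling protein, read 6.05, 5.67 and 5.90 on agonist arrays, 5.54, 5.60 and 5.59 on GPR39 arrays, and 5.64, 5.67 and 5.47 on mock arrays. Its agonist arrays were the higher ones, with agonist replicate 2 equal to mock replicate 2 at this rounding. The changes of 0.30 ± 0.10 against GPR39 (adjusted p = 0.126) and 0.28 ± 0.10 against mock (adjusted p = 0.116) did not pass. Without agonist replicate 2 they were 0.40 and 0.38 and passed (adjusted p = 0.0471 and 0.0366).

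None of the other RAB11 partners passed, and their groups overlapped in every comparison. RAB11FIP2, which binds myosin Vb, read 8.09, 8.09 and 8.01 on agonist arrays, 8.13, 8.08 and 8.26 on GPR39 arrays, and 8.11, 8.03 and 8.06 on mock arrays. Its change against mock was -0.005 ± 0.07, with a 95% interval from -0.17 to 0.16. RAB11FIP3, a partner of RAB11 in cell division, had equal means of 5.13 on agonist and GPR39 arrays with GPR39 values spread from 4.84 to 5.53. Its interval against the GPR39 arrays ran from -0.39 to 0.39 and is among the wider ones. RAB11FIP4 changed by -0.23 ± 0.14 and RAB11FIP5 by 0.16 ± 0.11 against the GPR39 arrays, neither past the threshold (adjusted p = 0.368 and 0.450).

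The RAB3 and RAB18 regulators had the narrowest errors of the 17 tested members. Exactly equal values occurred on 3 of 9 arrays for RAB3GAP1 and on 4 for RAB3GAP2. RAB3GAP1 and RAB3GAP2 encode the catalytic and noncatalytic subunits of a complex that inactivates RAB3 and activates RAB18. RAB3GAP1 read 8.02, 7.97 and 7.90 on agonist arrays, 7.97, 8.09 and 8.03 on GPR39 arrays, and 7.95, 7.90 and 7.97 on mock arrays. Its interval against mock ran from -0.13 to 0.17. RAB3GAP2 read 7.99, 7.99 and 7.84 on agonist arrays, 8.06, 8.10 and 8.11 on GPR39 arrays, and 7.99, 7.95 and 7.99 on mock arrays. The GPR39 arrays were the highest 3, but changes of -0.15 ± 0.07 in agonist against GPR39 and 0.11 ± 0.07 in GPR39 against mock did not pass (adjusted p = 0.237 and 0.503).

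RAB3IP and RAB3IL1 encode GEFs of RAB8, the GTPase of export to the surface and the cilium. RAB3IP read 3.28 on agonist replicates 1 and 3 and 3.50 on replicate 2, 3.28, 3.28 and 3.30 on GPR39 arrays, and 3.18, 3.23 and 3.28 on mock arrays. Of its 9 values 5 were exactly equal. RAB3IL1 read 4.08, 4.02 and 3.80 on agonist arrays, 3.81, 3.93 and 3.93 on GPR39 arrays, and 3.89, 3.67 and 3.40 on mock arrays. The mock arrays were the most spread, and the change of 0.32 ± 0.13 in agonist against mock did not pass (adjusted p = 0.152).

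RABGAP1 encodes a TBC domain GAP of early endosomes, RABGAP1L is its close relative, and RAB5IF is named for an interaction with RAB5. RABGAP1 read 7.88, 7.77 and 7.71 on agonist arrays, 7.86, 7.88 and 7.83 on GPR39 arrays, and 7.88, 7.95 and 8.11 on mock arrays. The change of -0.19 ± 0.08 in agonist against mock did not pass (adjusted p = 0.166). RABGAP1L changed by 0.06 ± 0.10 in the same comparison (adjusted p = 0.733). RAB5IF read 6.81, 6.86 and 6.91 on agonist arrays, 6.82, 6.70 and 6.74 on GPR39 arrays, and 6.61, 6.74 and 6.52 on mock arrays. Every agonist array was above every mock array, and the change of 0.23 ± 0.08 did not pass (adjusted p = 0.0883), but it did, at 0.30, with arrays centred on their 75th percentile (adjusted p = 0.0437).

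**Figure D2:**
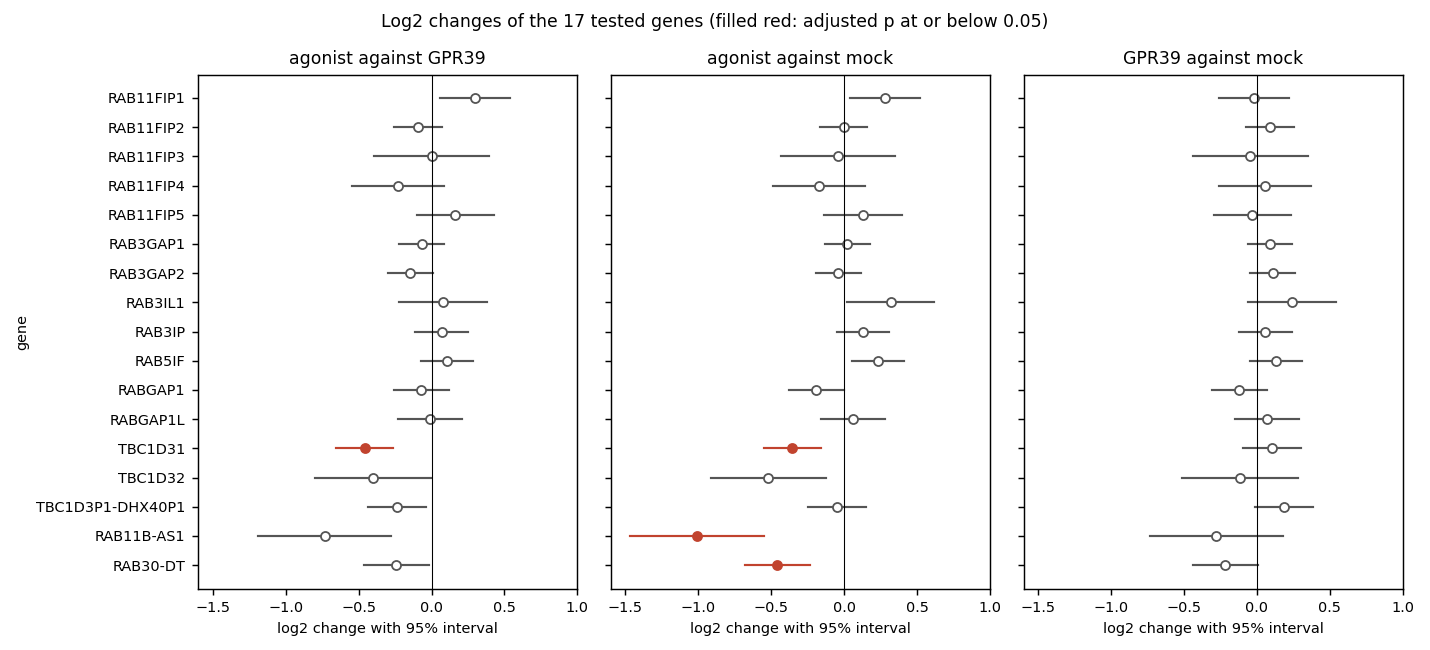
Log2 change of the 17 tested genes with its 95% interval, for agonist against GPR39, agonist against mock and GPR39 against mock; red filled points passed an adjusted p of 0.05. TBC1D31 is red in both agonist comparisons, RAB11B-AS1 and RAB30-DT in agonist against mock, and no gene in GPR39 against mock.

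The intervals limit how far the members not called can have moved. In agonist against GPR39, 12 of the 16 such members had a 95% interval inside 0.5 log2 units on both sides. In agonist against mock 11 of 14 did, and in GPR39 against mock 14 of 17. The lowest bounds belonged to RAB11B-AS1 at -1.19 and -0.74 in the comparisons with the GPR39 group, and to TBC1D32 at -0.92 in agonist against mock. RAB6D, at 1.32, 1.49 and 1.11 on agonist arrays, 1.55, 1.86 and 1.63 on GPR39 arrays and 1.55, 1.59 and 1.60 on mock arrays, lay below the filter throughout. Its level is not reported as a change, and copies of RAB6C could share its probes.

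The rest of the RAB cycle was read from 4 lists of 103 further genes, 82 of them named and 78 tested. The lists were chosen with earlier results of these data known, and all probe sets include many without a gene name. The shares of the lists are therefore a description and no test of them against the whole array. In agonist against GPR39 arrays 13 were called, 12 lower and 1 higher, or 16.7%, against 9.06% of all probe sets. That count was 8 without GPR39 replicate 1 and 6 without GPR39 replicate 2 or 3, where the count over all probe sets fell as well, to 1509 without GPR39 replicate 3, against 3025 with all arrays. In agonist against mock arrays 22 were called, 19 lower and 3 higher, or 28.2%, against 15%. In GPR39 against mock arrays 1 was called, lower, against 1.17%. The median change over the 78 genes was -0.08 in both agonist comparisons and -0.01 in GPR39 against mock.

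The genes that ready RABs for membranes had 3 of 5 tested genes lower in agonist against GPR39 arrays and 3 of 5 in agonist against mock, against 9.06% and 15% of all probe sets called. Neither count held on leaving out any of the 9 arrays: 1 or 2 genes were then called against GPR39 and 2 against mock. ARL6IP5, a PRA1 family protein of the ER that belongs to the family of prenylated RAB acceptors, read 7.83, 7.73 and 7.92 on agonist arrays, 8.68, 8.75 and 8.79 on GPR39 arrays, and 8.96, 8.82 and 8.80 on mock arrays. The agonist arrays stood far below the other 6. It fell by 0.92 ± 0.08 against the GPR39 arrays (1.89-fold, adjusted p = 0.000567) and by 1.04 ± 0.08 against mock (adjusted p = 0.000127). CHML, a RAB escort protein that presents new RABs for prenylation, read 7.46, 7.61 and 7.34 on agonist arrays, 7.84, 7.83 and 7.84 on GPR39 arrays, and 7.95, 8.11 and 8.14 on mock arrays. The 3 groups did not overlap, and it fell by 0.37 ± 0.09 against GPR39 (adjusted p = 0.0397) and by 0.59 ± 0.09 against mock (adjusted p = 0.00327).

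GDI2, which extracts GDP-bound RABs from membranes, read 10.22, 10.22 and 10.14 on agonist arrays, 10.40, 10.45 and 10.45 on GPR39 arrays, and 10.43, 10.40 and 10.41 on mock arrays. It fell by 0.24 ± 0.06 against GPR39 and 0.22 ± 0.06 against mock (adjusted p = 0.0437 and 0.0416). These small falls lost the call on leaving out any of the 9 arrays (adjusted p from 0.0541 to 0.134 against GPR39 and from 0.0654 to 0.105 against mock). CHML against GPR39 lost it on leaving out any of 7 arrays, all but mock replicate 1 and agonist replicate 2 (adjusted p from 0.0515 to 0.115). RABAC1 and RABIF, a RAB acceptor and a RAB-stabilising protein, changed by -0.05 and -0.02 against GPR39 and did not pass.

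The GEFs had 5 of 32 tested genes lower and 0 higher in agonist against GPR39 arrays, or 15.6%, against 9.06% of all probe sets, and 7 lower and 1 higher in agonist against mock, or 25%, against 15%. The count of 5 was 3 without GPR39 replicate 2 or 3. SBF2, a DENN domain protein whose loss causes an inherited neuropathy, read 4.97, 4.85 and 4.90 on agonist arrays, 5.44, 5.44 and 5.40 on GPR39 arrays, and 5.80, 5.83 and 5.74 on mock arrays. The groups formed 3 separate levels. SBF2 fell by 0.52 ± 0.06 in agonist against GPR39 (adjusted p = 0.00277), by 0.89 ± 0.06 in agonist against mock (adjusted p = 9.4e-05) and by 0.36 ± 0.06 in GPR39 against mock (adjusted p = 0.0379). This last call, the 1 among the 78 genes in that comparison, was lost on leaving out any array except mock replicate 1 (adjusted p from 0.0551 to 0.156).

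HPS4, a subunit with HPS1 of the BLOC-3 complex that activates RAB32 and RAB38 for lysosome-related organelles, read 4.86, 4.54 and 4.76 on agonist arrays, 5.32, 5.26 and 5.44 on GPR39 arrays, and 5.74, 5.75 and 5.76 on mock arrays. It too lay at 3 separate levels, falling by 0.62 ± 0.09 in agonist against GPR39 (adjusted p = 0.00677) and by 1.03 ± 0.09 in agonist against mock (adjusted p = 0.000331). The change of -0.41 ± 0.09 in GPR39 against mock did not pass (adjusted p = 0.0959). Its partner HPS1 changed by -0.11 and -0.25 in the agonist comparisons and did not pass.

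RGP1, a subunit with RIC1 of the GEF of RAB6 at the Golgi, read 6.11, 6.00 and 6.03 on agonist arrays, 6.39, 6.55 and 6.51 on GPR39 arrays, and 6.45, 6.41 and 6.39 on mock arrays. Only the agonist arrays stood apart, and it fell by 0.44 ± 0.07 against the GPR39 arrays and by 0.37 ± 0.07 against mock (adjusted p = 0.00835 and 0.00968). RIC1 itself changed by 0.03 and -0.04 and did not pass. The 2 further GEF genes lower in agonist against GPR39 were DENND2C at -0.47 and DENND11 at -0.60, both lost without GPR39 replicate 2 or 3 (adjusted p from 0.0519 to 0.0702). DENND4C, a GEF of RAB10, fell by 0.49 ± 0.07 in agonist against mock (adjusted p = 0.00268). RABGEF1, the GEF of RAB5, rose by 0.54 ± 0.10 in that comparison (adjusted p = 0.00840).

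The effectors had 4 of 33 tested genes lower and 1 higher in agonist against GPR39 arrays, or 15.2%, against 9.06% of all probe sets, and 7 lower and 2 higher in agonist against mock, or 27.3%, against 15%. The count of 5 was 2 on leaving out any GPR39 array and 3 without agonist replicate 3. OCRL, an inositol 5-phosphatase that binds several RABs and is lost in Lowe syndrome, read 7.86, 7.90 and 7.73 on agonist arrays, 8.38, 8.37 and 8.50 on GPR39 arrays, and 8.63, 8.40 and 8.47 on mock arrays. It fell by 0.59 ± 0.09 against GPR39 (adjusted p = 0.00599) and by 0.67 ± 0.09 against mock (adjusted p = 0.00164). SYTL5, a RAB27 effector of secretory vesicles, read 6.14, 6.11 and 6.16 on agonist arrays, 6.68, 6.56 and 6.65 on GPR39 arrays, and 6.72, 6.65 and 6.52 on mock arrays. For both genes the agonist arrays lay below all others while the GPR39 and mock arrays overlapped, and SYTL5 fell by 0.49 ± 0.07 in both agonist comparisons (adjusted p = 0.00634 and 0.00339).

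MYO5C, a myosin V motor of secretory traffic, read 5.50, 5.80 and 5.75 on agonist arrays, 6.14, 6.19 and 6.13 on GPR39 arrays, and 6.41, 6.37 and 6.26 on mock arrays. It fell by 0.47 ± 0.09 against GPR39 (adjusted p = 0.0175) and by 0.67 ± 0.09 against mock (adjusted p = 0.00223). The first call was lost on leaving out any GPR39 array (adjusted p from 0.0580 to 0.0675). SYTL4, which encodes granuphilin, a RAB27 effector of dense granules, fell by 0.62 ± 0.09 in agonist against mock (adjusted p = 0.00321). The fourth effector lower in agonist against GPR39 was the golgin gene GOLGA5 at -0.31 ± 0.07 (adjusted p = 0.0242), lost on leaving out any GPR39 array or agonist replicate 2 or 3 (adjusted p from 0.0532 to 0.0940).

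BICD2, a dynein adaptor recruited by RAB6, was the 1 gene of the 78 called higher in agonist against GPR39 arrays, and it is named for that reason after its values were seen. It read 6.67, 6.95 and 6.77 on agonist arrays, 6.26, 6.42 and 6.47 on GPR39 arrays, and 6.56, 6.36 and 6.37 on mock arrays. It rose by 0.42 ± 0.10 against GPR39 and 0.37 ± 0.10 against mock (adjusted p = 0.0408 and 0.0455). Both calls were lost on leaving out any array other than mock replicate 1 and agonist replicate 1 (adjusted p from 0.0544 to 0.136). With RABGEF1, the third gene higher in agonist against mock was MICALL2, an effector of RAB13 at cell junctions, at 0.69 ± 0.14 (adjusted p = 0.0120), a call lost with only the 6 arrays compared (adjusted p = 0.0509).

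**Figure D3:**
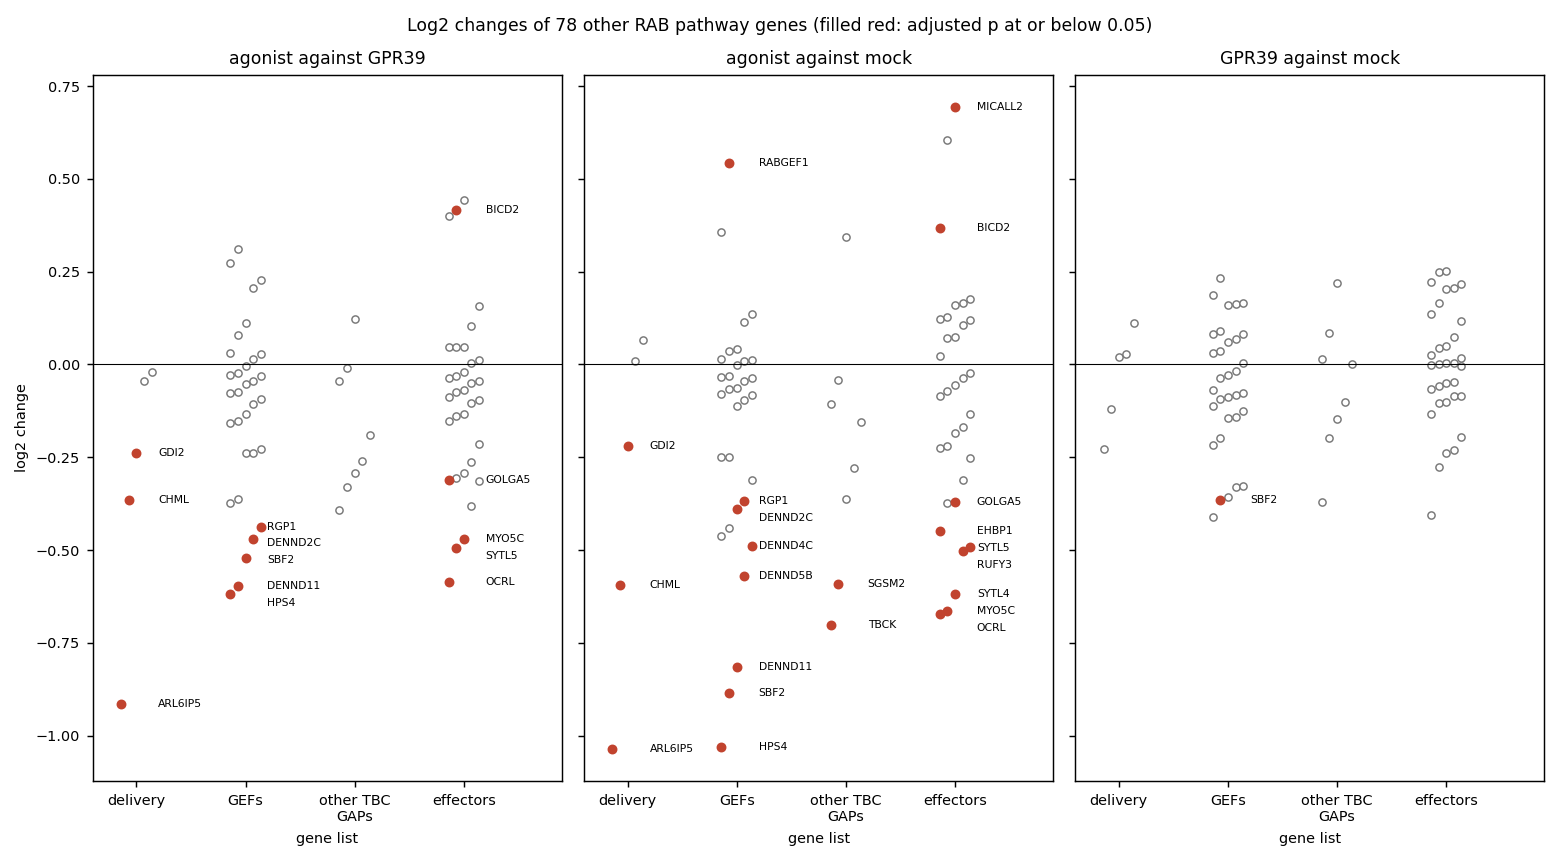
Log2 change of the 78 other tested genes of the RAB cycle in 4 lists, for agonist against GPR39, agonist against mock and GPR39 against mock; each point is a gene and red filled points passed an adjusted p of 0.05. In agonist against GPR39, 12 red points lie below zero and 1 above, with ARL6IP5 at -0.92.

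**Figure D4:**
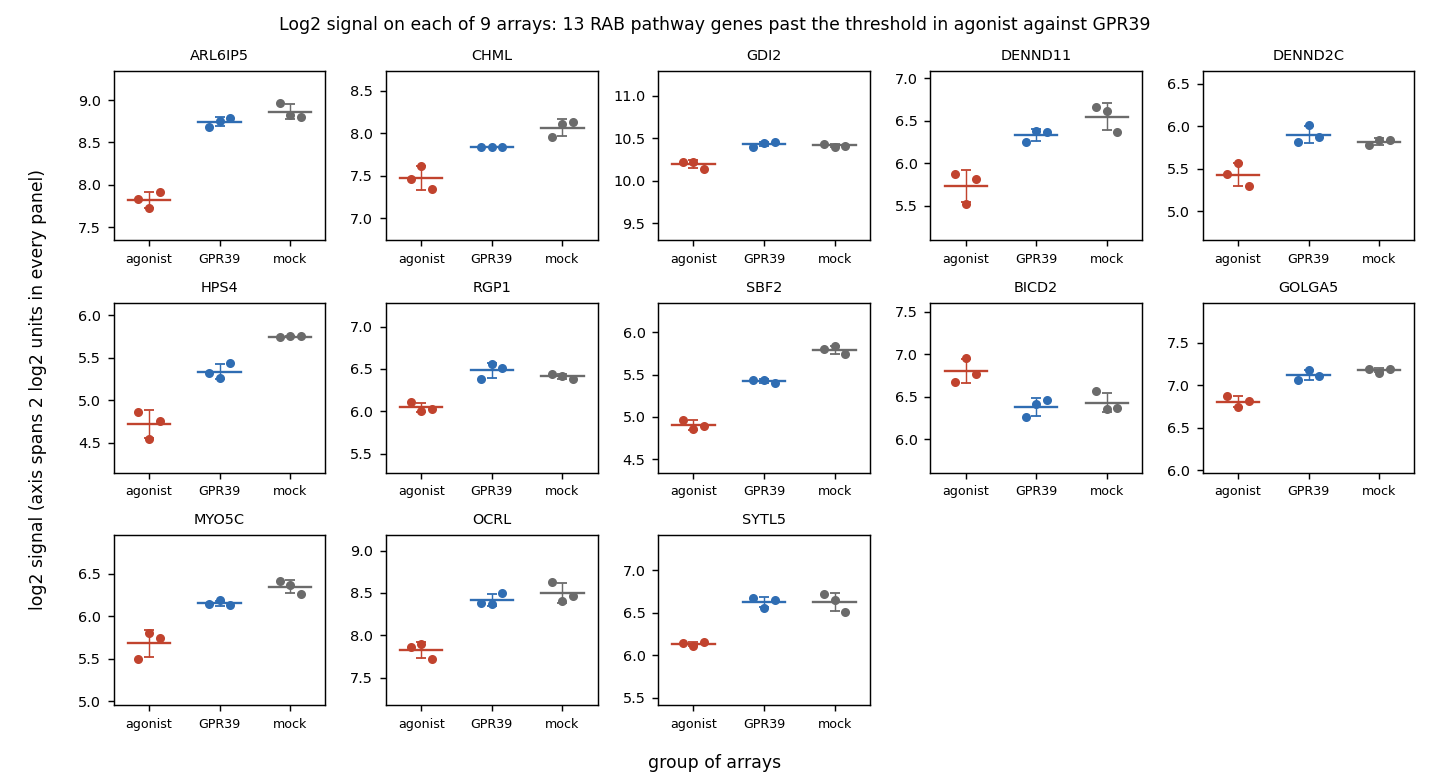
Log2 signal on each array of the 13 genes called in agonist against GPR39, with agonist, GPR39 and mock groups side by side; points are arrays, lines are means and bars are SDs (n = 3), and every axis spans 2 log2 units. In SBF2, HPS4, ARL6IP5, CHML and MYO5C the 3 groups do not overlap, while OCRL and SYTL5 are low on agonist arrays only.

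The list of other TBC domain GAPs, which leaves out the members RABGAP1 and RABGAP1L, had 0 of 8 tested genes called in agonist against GPR39. The share of all probe sets called there was 9.06%. Of the 8 genes, 3 had an unadjusted p of 0.05 or less in limma. No whole-array share at that level is given here, so this count is not read further. In agonist against mock 2 of 8 fell, or 25%, against 15% of all probe sets. TBCK, a TBC domain protein with a kinase-like region, fell by 0.70 ± 0.14 (adjusted p = 0.0123). SGSM2, a GAP of RAB32 and RAB38, fell by 0.59 ± 0.14 (adjusted p = 0.0289), and lost the call on leaving out any array other than mock replicate 1 and agonist replicate 2 (adjusted p from 0.0501 to 0.0988).

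The direction of the whole-array background depended on scaling. Of the probe sets called in agonist against mock, 40.6% were higher as deposited and 56.2% with arrays centred on their 75th percentile. In GPR39 against mock the shares were 63.9% and 74.7%. Centring moved the median change of all probe sets in agonist against mock to 0.09, against 0.02 as deposited.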

How the data were processed

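RNA of 9 HEK293 samples was measured on Affymetrix arrays, 3 in each of 3 groups, per the labels. The values are log2 signals as deposited, judged from their range of 0.717 to 13.4977. The authors used MAS5, per the submitters' processing notes. The sources used here state neither the log step, the scaling nor a version. Array data carry no read depth, so the number of arrays limits the precision.

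Of 53617 probe sets, 16098 carry a gene symbol in the platform annotation, and all matched RefSeq (GRCh38.p14) by Entrez identifier. All 9 arrays were fitted together with limma 3.58.1 in R 4.3.3 (lmFit, eBayes; 6 residual and 2.12 prior degrees of freedom) on the 33376 probe sets above the 40th percentile in at least 3 arrays. The two-sided p-values were adjusted by Benjamini-Hochberg across this whole set, with a threshold of 0.05. The code was tested on simulated data. A gene with several probe sets was read from the one with the highest mean. Every selected gene may be named, and of each further list the 3 with the smallest p per comparison, plus those of counts of 5 or fewer, chosen after their values were seen, and 4 others (RABAC1, RABIF, HPS1 and RIC1) named with them on the same footing. The members and lists were chosen with earlier results of these data known. Replicate numbers did not pair the arrays. The alternatives changed the filter, the normalization, the scaling, the arrays fitted, the prior, the replicate block, repeated rows and single arrays.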

Additional observations from a re-analysis of the deposited data

How the results depend on the processing

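In the comparisons where it was called as reported, no selected or further gene changed sign under the alternatives run. Some selected genes that were not called did, such as RAB11FIP3 in agonist against GPR39 (-0.14 to 0.20). The called markers were not recomputed. Centring turned the balance of all calls in agonist against mock to 56.2% higher (40.6% as reported). Replicate numbers did not pair the arrays, since no correlation of same-numbered deviations passed 0.1. With the replicate block, 150 probe sets were called in GPR39 against mock (391 without it), 1819 in agonist against GPR39 (3025 without it), 8 of the 78 further genes in agonist against GPR39, and 0 members there, TBC1D31 having an adjusted p of 0.0509. The block also left 0 TBC1D genes called in agonist against mock and 0 further genes in GPR39 against mock. In GPR39 against mock, 637 probe sets were called with the stricter filter, 670 with an intensity trend and 190 with only the 6 arrays compared. The count of further genes there, 1 as reported, was 2 with the stricter filter or the trend and 0 with no filter, quantile normalization, centring on the 75th percentile or 6 arrays. In agonist against mock, 6 arrays gave 3133 probe sets (5022 with all 9). Quantile normalization and centring each left 0 TBC1D genes called there, and centring added 1 RAB-associated gene, RAB5IF. The stricter filter gave 2 members in agonist against GPR39, adding RAB11B-AS1 (adjusted p = 0.0399). With 6 arrays RAB30-DT, MICALL2, BICD2, SGSM2, DENND2C and GDI2 lost their calls against mock, and BICD2, CHML, GDI2 and GOLGA5 theirs against GPR39 (adjusted p from 0.0509 to 0.109). The cause of these shifts was not tested.

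Leaving out 1 array at a time gave 108 to 1323 probe sets in GPR39 against mock, the highest without mock replicate 1, 1509 to 3119 in agonist against GPR39 and 3493 to 4947 in agonist against mock. Members called ranged over 0 to 0, 1 to 2 and 1 to 4 in the same order, and further genes over 0 to 2, 6 to 13 and 18 to 23. TBC1D genes ranged over 0 to 0, 1 to 1 and 0 to 1, and RAB-associated genes over 0 to 0, 0 to 1 and 0 to 1. No member has a second probe set, so that alternative gave no value for members.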

Other observations

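Windows on chromosome 8 were left out of the search, so TBC1D31, a called member, and RAB11FIP1 were not searched. With that limit, promoter windows were found for 14 of the 18 selected genes, 24 windows in all. The cAMP response element TGACGTCA was found in those of 3 genes (RAB11FIP3, RAB5IF and TBC1D32), none of which was called with all 9 arrays and the values as deposited, and the AP-1 site TGANTCA in those of 1, RABGAP1L. Among the further genes, the cAMP response element was found for HPS4, called lower in both agonist comparisons, and for another gene that was not called. The AP-1 site was found for called further genes such as SBF2 and SYTL5, and for others not called. These are matches of letters on either strand and say nothing of binding. Exactly equal values on at least 3 arrays occurred in 4 of the 17 tested members, or 23.5%, the same share as over all tested probe sets.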
